A study of Sus scrofa with 20 samples.

Results

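The 200 tags described here are those with the sharpest peak at 2 dpn (days post natum) in pig longissimus muscle, out of 801159 distinct clean tags in all libraries. A tag is a short piece of an mRNA sequence that stands for its transcript, and its level is given as TPM, its copies in every 1000000 clean tags of a library. The members were chosen by their measured levels. For each tag the lower TPM of the 2 libraries of 2 dpn, plus 1, was divided by the highest TPM among 16 other libraries, plus 1, and the 200 tags of the highest ratio were taken. Members are numbered by this ratio, so that member 1 has the highest. The high level at 2 dpn is therefore a property of the choice, and every comparison of 2 dpn with another stage is given as a description without a test.

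The libraries came from Landrace (LR), a lean breed, and Lantang (LT), a fatter Chinese breed, at 35, 49, 63, 77 and 91 dpc (days post coitus) and at 2, 28, 90, 120 and 180 dpn. Each of the 20 combinations of breed and stage was 1 library, made from a pool of muscle RNA of 3 animals, all male per the study's methods. Prenatal animals were fetuses from inseminated purebred sows, and the boars were castrated after the second week of life, so that the 2 dpn animals were intact. No breed and stage had a replicate library, and the spread between animals cannot be seen in a pool. LR at 120 and 180 dpn were left out of the choice.

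Around birth a pig passes from placental supply to milk, to breathing and to standing, and its muscle changes with it. The fibres have formed before birth, and afterwards they grow in length and thickness while fetal and neonatal forms of contractile proteins give way to adult ones. In digital gene expression (DGE) profiling, the enzyme NlaIII cuts cDNA at CATG, and the bases that follow the cut are read as the tag of that transcript. The files list tags by sequence without gene names, and no transcript sequences were used here, so that all results are for tags and the tissue could not be checked by marker genes.

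Every tag was 21 bases long. The 10 members of the highest ratio are shown because they carry the sharpest peaks, with the CATG of the cut in capitals and the following 17 bases in lower case, read 5′ to 3′.
Member 1: CATGggcaagtgactggcacc
Member 2: CATGttggtgtggtgggcagg
Member 3: CATGgagatgctgaagttgga
Member 4: CATGtggccctccagggaagc
Member 5: CATGcattgggcctgccgtgg
Member 6: CATGaagagcgccaggatgaa
Member 7: CATGacacagaatctaagatg
Member 8: CATGatgaccaagaacctggc
Member 9: CATGtttctgccaaagataag
Member 10: CATGgtggacgccttcgcggg

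The other 4 of the 5 most abundant members at 2 dpn are shown because they carry much of the summed level. Member 6 is the fifth of them.
Member 95: CATGcgggagtgtgagcaagc
Member 119: CATGtgcaaaagtccccccag
Member 136: CATGtttcttctgtaaatatg
Member 142: CATGtcccaggaagcccccat

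LR at 90 dpn was the smallest library with 2157111 clean tags and LT at 91 dpc the largest with 5322022, beside 3116426 in LR and 4415414 in LT at 2 dpn. One copy stood for 0.188 to 0.464 TPM, and 3 copies, the floor taken as detected, stood for 0.564 to 1.39 TPM. Low-copy tags, of 2 to 4 copies, made up 70.3% of the distinct tags of LR at 2 dpn and 68.5% of LT at 90 dpn, against 53.7% to 59.1% in the other 18 libraries. Tags with a further CATG behind the first carried 0.116% of the counts of LR at 120 dpn and 0.224% at 180 dpn, against 2.14% to 3.80% in the other 18 libraries (95% Wilson intervals of at most 0.023 percentage points to either side). All intervals and floors speak for the counting error of reads alone. PCR copies of 1 molecule are counted separately, so the intervals can be too narrow for counts of molecules. The part of these differences between libraries in the results was not tested.

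Together the members were several times more abundant at 2 dpn than at any other stage used in the choice. Their summed level was 7732 TPM in LR and 11363 TPM in LT at 2 dpn. In the other 16 libraries it ran from 701 to 2039 TPM with a median of 931 TPM. In pooled whole muscle, more cells of a type and more RNA per cell cannot be told apart. The sum at 2 dpn was 3.79 times (LR) and 5.57 times (LT) the highest of the 16, which was LT at 180 dpn. Before birth the sum lay between 701 and 1182 TPM in the 10 libraries, and in the 6 later libraries of the choice between 767 and 2039 TPM. The lowest of these 6 was LT at 90 dpn at 767 TPM, beside 1772 TPM in LR at 90 dpn. TMM scaling, which corrects for differences in library composition, moved several sums by more than 1.5 times. It gave 450 to 851 TPM before birth and 1168 to 2706 TPM in the 6 later libraries, so that these ranges no longer overlapped and LT at 28 dpn became the highest of the 16. The sum at 2 dpn was then 7521 TPM in LR and 10042 TPM in LT.

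The members differed widely in abundance, and few of them carried the sum. Their levels at 2 dpn ran from 0.963 to 604 TPM in LR, with a median of 9.63 TPM, and from 0.906 to 1105 TPM in LT, with a median of 8.95 TPM. By the mean of both breeds at 2 dpn, 101 members were under 10 TPM, 76 between 10 and 100 TPM, and 23 at 100 TPM or more. The 23 abundant members held 69.7% of the summed level at 2 dpn and the 101 scarce members 3.48%. The scarce members summed to 341 TPM in LR and 324 TPM in LT at 2 dpn, the middle class to 2351 and 2763 TPM, and the abundant class to 5040 and 8277 TPM.

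**Figure D1:**
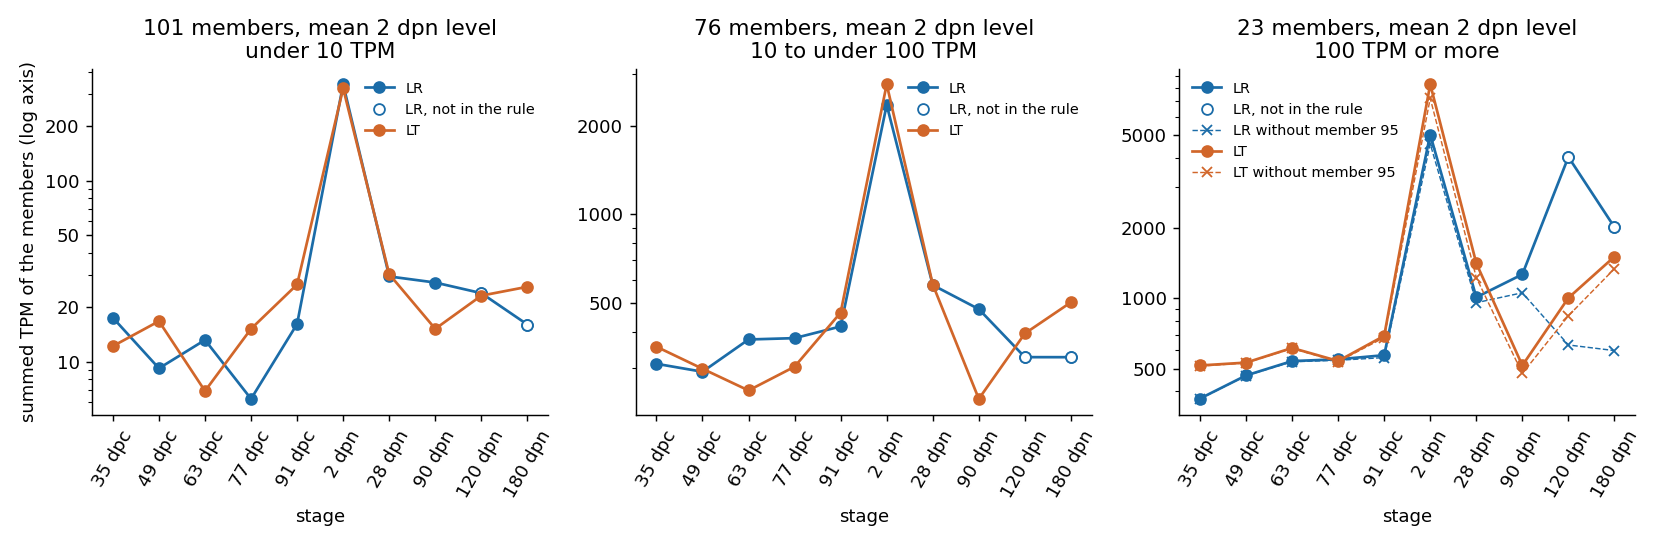
Summed TPM (log axis) of the members at each of the 10 stages, in 3 panels by their mean level at 2 dpn, with 1 point per library for LR (blue) and LT (orange). Open circles are the LR libraries left out of the choice, crosses with dashed lines leave out member 95, and in each panel and breed the 2 dpn point is the highest on this scale without TMM, with LR at 120 dpn nearest to it in the abundant class at 4040 TPM.

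The ratio of the rule ran from 1.83 to 5.86 with a median of 2.03. Member 1 had 21.2 TPM (66 copies) in LR and 24.2 TPM (107 copies) in LT at 2 dpn. Its level in the other 16 libraries ran from 0 to 2.78 TPM with a median of 0.485 TPM, so that the 2 dpn libraries stood clear of all of them. Member 2 had 79.6 TPM in LR and 21.3 TPM in LT at 2 dpn and 0 to 3.72 TPM elsewhere, with a median of 0.796 TPM. Member 3 had 27.3 and 46.4 TPM in LR and LT at 2 dpn, and 0 to 5.46 TPM in the other 16, with a median of 1.32 TPM. These 3 members were low through fetal life, at most 3.72 TPM, were high in both breeds 2 days after birth, and were at most 3.71 TPM at 28 dpn.

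Member 4, with 8.34 TPM in LR and 9.97 TPM in LT at 2 dpn, was at 0 in most of the other 16 libraries, whose highest value was 1.36 TPM. Member 5 had 53.6 and 138 TPM at 2 dpn against 0 to 13.3 TPM elsewhere, with a median of 1.99 TPM. Member 8 had 98.5 and 150 TPM against 0 to 25.7 TPM, with a median of 1.78 TPM. For members 5 and 8 the highest other library was an LT library after 2 dpn, at 180 and 28 dpn respectively. Member 10 had 76.7 TPM in LR and 68.6 TPM in LT at 2 dpn, and 1.34 to 17.8 TPM elsewhere, with a median of 5.78 TPM.

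Members 6, 7 and 9 were counted in each of the other 16 libraries. Member 6 had 460 TPM (1435 copies) in LR and 961 TPM (4242 copies) in LT at 2 dpn. In the other 16 libraries it ran from 6.77 to 120 TPM with a median of 34.3 TPM. Member 7 had 104.6 and 183 TPM at 2 dpn and 9.56 to 26.8 TPM elsewhere, with a median of 14.4 TPM. Member 9 had 211 and 282 TPM at 2 dpn and 11.4 to 56.0 TPM elsewhere, with a median of 24.1 TPM.

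**Figure D2:**
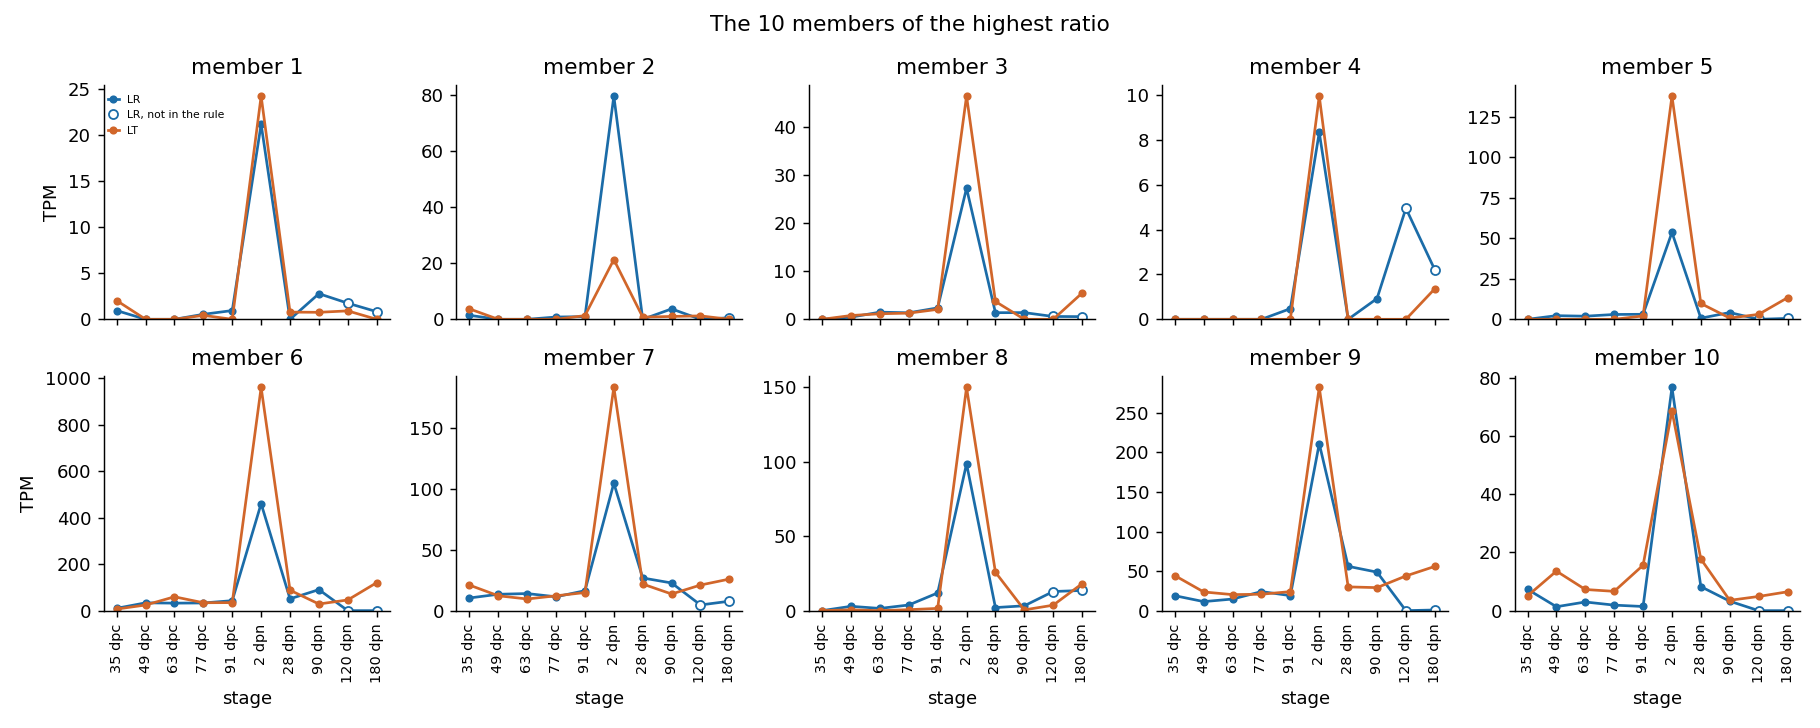
TPM (linear axes, each panel with its own scale) of the 10 members of the highest ratio at the 10 stages, 1 point per library, LR in blue and LT in orange. Each panel has its highest points at 2 dpn, from 8.34 TPM for member 4 in LR to 961 TPM for member 6 in LT. Open circles are the LR libraries that the choice left out.

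Among the most abundant members, the level after 2 dpn did not return to the fetal level in every library. Member 95 had 444 TPM in LR and 1067 TPM in LT at 2 dpn. Before birth it was at most 13.3 TPM in LR and 11.5 TPM in LT, both at 91 dpc, and at 90 dpn it had 210 TPM in LR and 39.2 TPM in LT. Member 142 had 477 and 613 TPM at 2 dpn, 0.672 to 11.7 TPM in the 10 fetal libraries, and 246 TPM in LR against 65.5 TPM in LT at 90 dpn. Both were low in all fetal libraries and stayed above their fetal range in every later library of the choice.

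Members 119 and 136 were present throughout. Member 119 had 379 TPM in LR and 1105 TPM in LT at 2 dpn and 33.2 to 192 TPM in the other 16 libraries, with a median of 103 TPM. Member 136 had 604 TPM in LR and 372 TPM in LT at 2 dpn and 5.67 to 189 TPM elsewhere, with a median of 44.3 TPM. In both, the highest other library was LT at 28 dpn.

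At the edge of the choice, members 199 and 200 had ratios of 1.833 and 1.832 and the first tags outside had 1.832 and 1.830. The last members inside are shown before the first tags outside, in order of ratio.
Member 199: CATGctgaacaccgtgcaggc
Member 200: CATGattagaactttttgcac
First tag outside: CATGgagaggaaagatttact
Second tag outside: CATGgccacttcagagctgag
Member 199 had 32.4 TPM in LR and 23.3 TPM in LT at 2 dpn, with at most 12.3 TPM elsewhere. Member 200 had 7.38 and 4.303 TPM with at most 1.89 TPM elsewhere. The first tag outside had 92.4 and 94.4 TPM with at most 50.0 TPM elsewhere. The second had 73.2 and 81.3 TPM with at most 39.5 TPM elsewhere, so that abundant tags lay on either side of the edge.

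The path across birth and into the suckling period had similar medians in LR and LT. The median of (TPM + 1) at 2 dpn over (TPM + 1) at 91 dpc was 3.98 in LR and 3.86 in LT over the 200 members. Over the 54301 tags whose lower 2 dpn level was at least that of the lowest member, called background tags below, it was 1.04 and 0.933. The same ratio of 2 dpn over 28 dpn had medians of 3.18 in LR and 3.61 in LT, beside 1.36 and 1.53 over the background tags. In the 23 abundant members the median ratio over 91 dpc was 7.96 in LR and 10.9 in LT, and that over 28 dpn 5.03 and 5.73. The rule sets these differences from the background.

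For the 99 members of 10 TPM or more, levels elsewhere can be given as a share of the level at 2 dpn. At 35 dpc the median was 9.53% of the 2 dpn level in LR and 9.17% in LT, and at 91 dpc 13.6% and 15.9%. From 35 to 91 dpc, 66 of the 99 were higher at the later stage in LR and 64 in LT, beside 55.8% and 46.6% of the 10865 background tags of that abundance. At 28 dpn the median was 25.1% in LR and 17.4% in LT. More members were higher at 28 dpn than at 91 dpc, 62 of 99 in LR and 68 in LT, whereas 38.7% and 40.6% of the background tags were.

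Grouped by their flanks in both breeds, 29 of the 99 lay below 25% of the 2 dpn level at both 91 dpc and 28 dpn, 14 of them abundant members. Another 33 lay below 25% at 91 dpc but not at 28 dpn, and 9 lay below 25% at 28 dpn but not at 91 dpc. With a limit of 10%, 7 members were low on both sides, among them members 1, 2, 3 and 5. These limits were set after the values were seen.

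In the single libraries of 90 dpn, most of the 99 members of 10 TPM or more were lower in LT than in LR. The 99 members had a median of 19.8% of their 2 dpn level in LR and 7.72% in LT. In LT 9 of the 99 were higher at 90 than at 28 dpn, beside 37.5% of the background tags, and in LR 45 were, beside 44.5%. At 90 dpn 12 of the 99 were higher in LT than in LR, beside 41.7% of the background tags, whereas at 28 dpn 51 were, beside 52.0%. In LT the medians rose to 13.8% at 120 dpn and 19.8% at 180 dpn, and 85 of 99 members were higher at 180 than at 90 dpn, beside 67.5% of the background tags. The choice used both 90 dpn libraries and capped the members there, so these counts are a description. Members are not replicates of a breed. LT at 90 dpn is a single library and one of the pair with many low-copy tags, and the part of this in the low level was not tested.

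**Figure D3:**
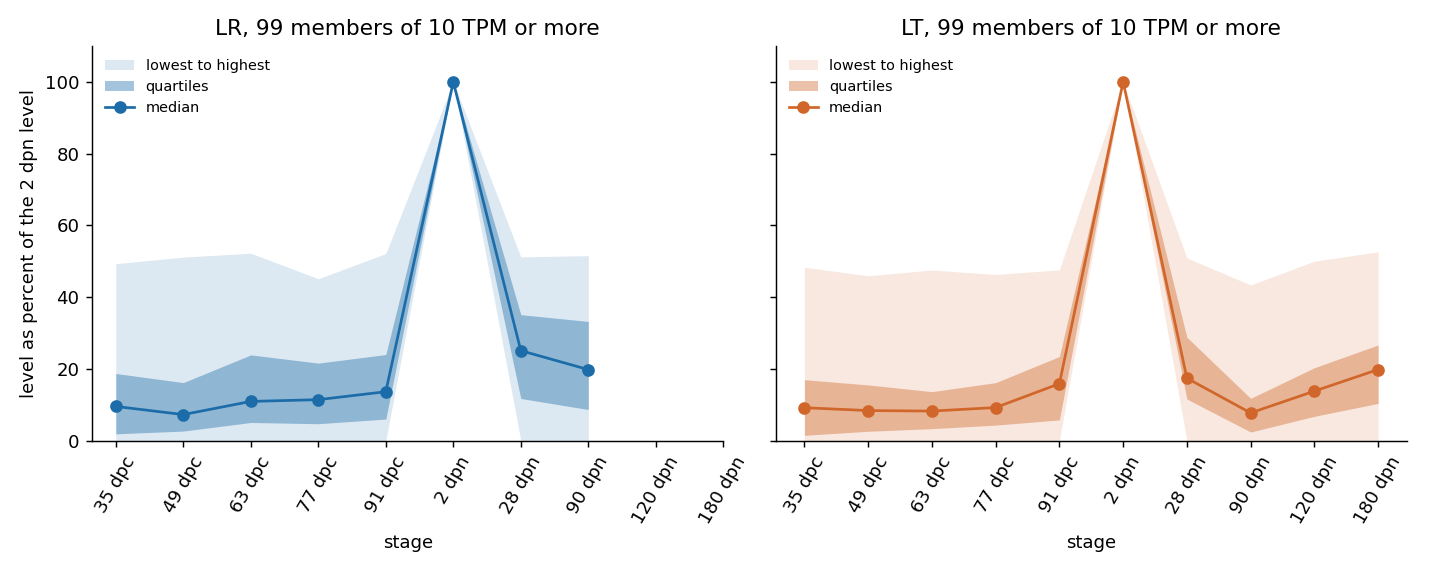
Level of the 99 members of 10 TPM or more at each stage as percent of their own level at 2 dpn, which is 100 by construction, for LR (left, without 120 and 180 dpn) and LT (right). Lines are medians over members, dark bands the quartiles and light bands the lowest to the highest member. The LR median stays at 19.8% at 90 dpn while the LT median falls to 7.72% and is again 19.8% at 180 dpn.

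Of the 200 members, 50 had 0 copies in all 16 other libraries, and 44 of these were also at 0 in LR at 120 and 180 dpn. They were scarce, with 3 to 20 copies in LR and 4 to 17 copies in LT at 2 dpn and a highest mean of 3.78 TPM. Tags seen as 1 copy had been removed, so a listed 0 can hide 1 copy. Absence was thus not detectable apart from a low level at this depth. At the other end, 67 members had counts in all 16 other libraries, 59 of them with 3 or more copies in each.

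For the 150 members with a copy elsewhere, the highest of the 16 libraries was a fetal one in 52 and a later one in 98. The stage nearest in level was 28 dpn in 57 members, LT at 180 dpn in 21, 91 dpc in 16, 90 dpn in 16 and 35 dpc in 15. The stage just after 2 dpn was thus the nearest in more members than the stage just before it.

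The 3 tags with the pattern most like that of member 1 were taken by Pearson's r of log2(TPM + 1) over the 20 libraries. They were member 2 (r = 0.93), CATGctcaaggccttctccat, which is not a member (r = 0.91), and member 77, CATGcgcttcgacccaccctc (r = 0.91). The tag that is not a member had 1.93 TPM in LR and 1.81 TPM in LT at 2 dpn, and at most 0.927 TPM in the other 16. Member 77 had 3.21 and 4.303 TPM at 2 dpn. These values rest largely on the shared high point at 2 dpn and on libraries at or near 0.

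At 2 dpn the breeds were mostly within 2-fold of each other. The ratio of LT to LR ran from 0.176 to 4.0 with a median of 1.04, beside 1.06 over the background tags. LT was at least 2-fold higher in 29 members, where 17.0% of the background tags were, and LR in 12 members, where 15.5% were, leaving 159 within 2-fold. After TMM scaling the counts were 18 for LT and 16 for LR. The exact binomial interval left out 1 in 23 of the 29 and in 8 of the 12. Of the 23 abundant members 7 were at least 2-fold higher in LT, where 21.7% of the background tags of this abundance were, and 0 in LR, where 14.9% were. Their median ratio was 1.52, beside 1.27 over those tags. The rule takes the lower of the 2 libraries and so limits how far a member could lie apart.

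The members of the largest gap between breeds are shown with the sequence because the counting interval of each ratio leaves out equality. They were picked as the extremes among the members, and the intervals are not adjusted for that. Each breed is a single pooled library, so a difference of the breeds beyond these libraries is not shown.
Member 171, higher in LT: CATGgcccaggagggcgtgat
Member 175, higher in LT: CATGagaaaagcccagaggat
Member 12, higher in LT: CATGgagatcctggagaagct
Member 86, higher in LR: CATGgtgcaataaataaagtt
Member 51, higher in LR: CATGgttcctacagcatccac
Member 171 had 32.4 TPM in LR and 108 TPM in LT, a ratio of 3.32 (95% interval 2.67 to 4.16). Member 175 had 8.66 and 28.5 TPM, a ratio of 3.29 (2.16 to 5.19), and was at 0 in most other libraries. Member 12 had 233 and 700 TPM, a ratio of 3.00 (2.77 to 3.26). With TMM scaling the ratio of member 12 was 2.73, outside this interval, while the other ratios named here stayed inside theirs. Member 2 went the other way, with an LR level 3.74 times that of LT (2.94 to 4.79). Members 86 and 51 rested on few copies, 20 and 19 in LR against 5 and 6 in LT, with LR to LT ratios of 5.67 (2.06 to 19.3) and 4.49 (1.72 to 13.7).

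**Figure D4:**
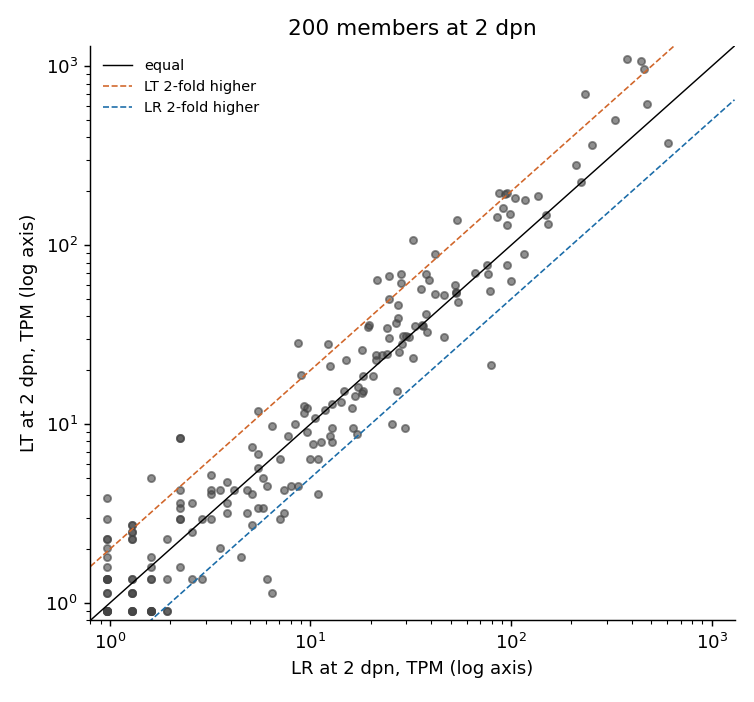
TPM of the 200 members at 2 dpn in LR (horizontal, log axis) and LT (vertical, log axis), 1 point per member, with lines for equal levels and for 2-fold differences. Of the points, 29 lie on or above the upper dashed line, 12 on or below the lower one, and the point highest in LT is member 119 at 1105 TPM.

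Whether the breeds differed over 2, 28 and 90 dpn was tested with edgeR's quasi-likelihood test over all tags, with stage as a block, so that stages stood in for replicates. The choice used all 6 of these libraries, and many members pass the filter on low counts only through 2 dpn, since 135 of the 200 passed it with 2 dpn and 83 without. The counts of calls are therefore shaped by the choice, and nothing about the members is read from them. Of the 135, 0 were called at an adjusted p below 0.05 and 0 reached an unadjusted p below 0.05, where 0.897% and 6.54% of all 36688 tags tested did, and DESeq2 called 0. With 6 libraries a p above the threshold does not show that the breeds were alike. Of the 99 members of 10 TPM or more, 66 were higher in LT at 2 dpn, near the 61.9% of the background tags. At 90 dpn 12 were, beside 41.7% of those tags. Both counts are by TPM, whereas the test used TMM scaling.

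Before birth, where the choice capped the level of the members in both breeds, 81 passed the filter and 2 were called between the breeds, while 6.11% of all 79222 tags tested were. At an unadjusted p below 0.05 it was 21 of 81, where it was 32.0% of all tags, and nothing is read from this difference either. The choice used these fetal libraries, so the 2 calls are given as a description and no difference between the breeds is read from them. Member 8, shown above, was higher in LR with a log2 fold change of LT over LR of -2.98 (SE 0.66, edgeR adjusted p = 0.031). Its LR levels from 35 to 91 dpc were 0, 2.91, 1.49, 3.79 and 11.9 TPM and its LT levels 0, 0.591, 0, 0.641 and 1.503 TPM. LR was higher at 4 of the 5 stages and both were at 0 at 35 dpc.

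The other call was member 177, which was higher in LT at 5 of 5 fetal stages.
Member 177: CATGcccagttaatatctctt
Its log2 fold change was 1.33 (SE 0.33, edgeR adjusted p = 0.043). Its LR levels from 35 to 91 dpc were 12.99, 4.26, 8.71, 8.66 and 9.26 TPM and its LT levels 33.8, 18.9, 18.7, 19.9 and 32.3 TPM, so that the breeds did not overlap. Both calls were lost without any one of the 49, 63, 77 or 91 dpc pairs, with adjusted p-values of 0.090 to 0.28. The log2 fold changes stayed between -3.14 and -2.75 for member 8 and between 1.21 and 1.52 for member 177 over the alternatives run. Without the 35 dpc pair 28 of 78 members were called, where 41.1% of all tags were.

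LR at 120 and 180 dpn took no part in the choice. The choice did keep the members low in the other libraries after 2 dpn, which it did not do for the background tags. A lower share of members detected here is thus not an independent check of the choice. With 3 or more copies, 63 members were detected in LR at 120 dpn and 62 at 180 dpn, which is 31.5% and 31.0%, beside 41.5% and 40.6% of the background tags. Detection depends on abundance, and within each class the share of members was below that of the background tags, a difference given without a test. Under 10 TPM, 6.93% of the members were detected at 120 dpn and 7.92% at 180 dpn, beside 34.5% and 33.6% of the background tags. Between 10 and 100 TPM it was 56.6% and 51.3%, beside 67.2% and 66.4%. In the abundant class it was 56.5% and 65.2%, beside 90.6% and 89.5%. In LT, whose libraries were used in the choice, 48% of the members were detected at 120 dpn and 51.5% at 180 dpn, beside 73.6% and 75.2% of the background tags. By TPM, 2 members lay above both 2 dpn libraries in LR at 120 dpn and 2 in LR at 180 dpn, but with TMM scaling it was 7 and 6, so that these counts rest on the scaling.

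Member 95 stood apart in these libraries, with 3408 TPM in LR at 120 dpn and 1422 TPM at 180 dpn, against 444 and 1067 TPM at 2 dpn and at most 210 TPM in the other 16. The summed level of the members was 4391 TPM in LR at 120 dpn and 2363 TPM at 180 dpn, and 983 and 941 TPM without member 95, beside a median of 927 TPM over the other 16 libraries, also without it. With TMM scaling the sums were 7612 and 4263 TPM, so that LR at 120 dpn then lay above LR at 2 dpn. Without member 95 they were 1704 and 1698 TPM with TMM scaling, beside a median of 767 TPM in the other 16. Member 119 had 306 and 310 TPM there, below both 2 dpn libraries, but 530 and 560 TPM with TMM scaling, above the 369 TPM of LR at 2 dpn. The third highest, member 57, had 93.6 and 68.3 TPM.
Member 57: CATGtaccaatgtactgcttt
Member 57 had 331 TPM in LR and 502 TPM in LT at 2 dpn.

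Several abundant members were missing from the same libraries. Of the 23 abundant members, 6 had 0 copies in both, beside 5.50% of the 1055 background tags of that abundance. Members 14 and 89, which belong to these 6, held a further CATG, and both libraries had few such tags. The part of this in their absence was not tested. Member 6 was also among the 6, although LT held it at 46.0 and 120 TPM at these ages. Member 9 had 0 and 0.829 TPM in LR at 120 and 180 dpn, against 43.9 and 55.9 TPM in LT.

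**Figure D5:**
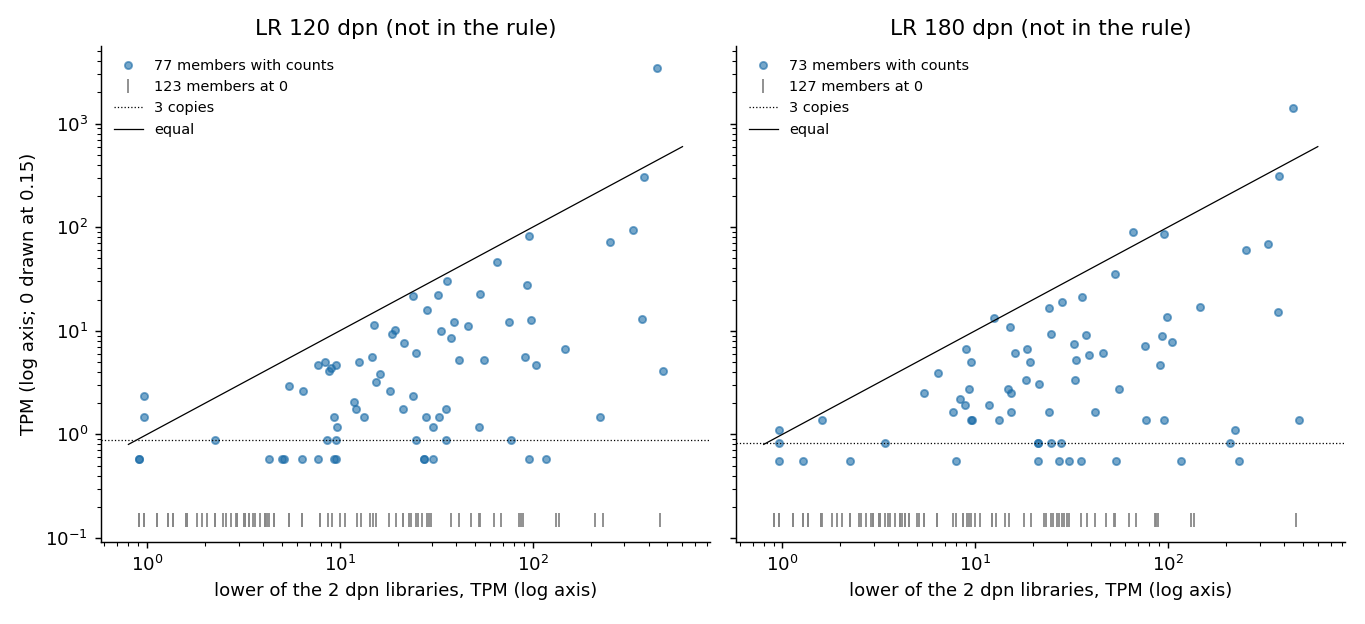
TPM of the 200 members in LR at 120 dpn (left) and 180 dpn (right), the libraries that the choice left out, against the lower of their 2 dpn levels (both log axes). Points on the solid line are equal, the dotted line marks 3 copies, and ticks at the bottom are members at 0, which are 123 at 120 dpn and 127 at 180 dpn. The point far above the line in both panels is member 95.

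The tags of the members held more G and C than the background tags, except among the abundant ones. The median G+C share of the 17 bases after CATG was 52.9%, beside 41.2% in the background tags and in all tags, and the means were 50.0% and 44.3% in members and background. In the 101 members under 10 TPM the median was 52.9%, beside 47.1% in the background tags of that abundance. In the 76 members of 10 to 100 TPM the median was 52.9% beside 41.2%, and in the 23 abundant members it was 47.1% in both. Weighted by copies, the 2 dpn libraries had G+C shares of 43.4% and 43.8%, inside the range of 42.0% to 46.8% over all 20 libraries. AATAAA or ATTAAA, the hexamers that precede polyadenylation, stood in 5 members (2.50%, 95% Wilson interval 1.07% to 5.72%), beside 2.37% of the background tags, and a run of 6 or more A in 2 members (1.00%), beside 1.26%. Both motifs were read on the strand of the tag.

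A further CATG inside the tag was seen in 14 members (7%, Wilson interval 4.22% to 11.4%), beside 3.63% of the background tags. Such a tag starts at a site upstream of another NlaIII site, so that 1 transcript could give both tags. Of the 14, 13 had 0 copies in LR at 120 and at 180 dpn, the libraries with few such tags in all. Of all 200 members, 123 were at 0 in LR at 120 dpn and 127 at 180 dpn. The difference was not tested. Members 46, 14 and 172 are shown because the end of the first repeats the start of the other two over 12 bases, with each CATG in capitals.
Member 46: CATGgggggCATGggcttcat
Member 14: CATGggcttCATGaaggagcc
Member 172: CATGggcttCATGaaggtaca
Member 46 had 28.2 TPM in LR and 69.3 TPM in LT at 2 dpn, and at most 11.3 TPM elsewhere. Member 14 had 85.4 and 143 TPM, and at most 26.3 TPM elsewhere. Member 172 had 2.25 and 2.94 TPM, and at most 0.709 TPM elsewhere. In all, 33 tags of the series start with the same 12 bases, 2 of them members, so the overlap does not tie these tags to 1 transcript.

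Members 1 base apart from another tag may count the same transcript, since a sequencing error or an allele changes a single base. A tag 1 base away at 10 or more times the member's 2 dpn level existed for 15 members, all under 10 TPM, and 13 of the 15 had one at 100 or more times. Among the 101 members under 10 TPM these were 15, beside 6.09% of the background tags of that abundance, and 12 of them were among the 50 members at 0 in the other 16 libraries. The 3 most abundant pairs of members are shown with the differing base in capitals, and positions are counted from 1 at the C of CATG.
Member 95: catgcgggagtgTgagcaagc
Member 125: catgcgggagtgAgagcaagc
Member 6: catgaagagcgccAggatgaa
Member 56: catgaagagcgccCggatgaa
Member 6: catgaagagcgccaggAtgaa
Member 121: catgaagagcgccaggCtgaa
Member 125 differs from member 95 by T13A and had 0.963 TPM in LR and 1.13 TPM in LT at 2 dpn, beside 444 and 1067 TPM of member 95. Member 56 differs from member 6 by A14C and had 2.89 and 2.94 TPM, and member 121 by A17C and had 0.963 and 2.94 TPM, beside 460 and 961 TPM of member 6. The scarce tag of each pair was at 0 or at most 0.682 TPM in the other 16 libraries. Whether these are errors or transcripts was not tested.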

How the data were processed

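DGE libraries of pooled longissimus muscle RNA were made by the authors with NlaIII and MmeI, and reads of adaptors, of low quality or seen as 1 copy were removed. The authors deposited for each of the 20 libraries the raw count of every distinct clean tag and the same count as TPM, per 1000000 clean tags, rounded. The submitters' processing notes name Bowtie 0.12.3 and the build NCBI36, without their role. TPM was recomputed here from the counts, with 0 where a tag was not listed.

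The members and gene lists were chosen with earlier results of these data known. Because no transcript sequences were used here, the planned marker and pathway genes are not analysed here. Libraries were grouped by breed and stage from their labels. Tags named in the text were the 10 of the highest ratio, the 5 most abundant at 2 dpn, the 3 of the largest breed ratio (TPM + 1) in each direction, the 2 on each side of the edge, called members, the 3 highest in LR at 120 or 180 dpn, the 3 most abundant pairs 1 base apart and the 3 most like member 1. Overlapping tags were chosen after their values were seen.

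Breeds were compared with edgeR 4.0.16 in R 4.3.3 (glmQLFTest, filterByExpr, TMM, stage as a block) on the deposited counts, with Benjamini-Hochberg adjustment over all tags tested and calls at an adjusted p below 0.05. The SE is the absolute log2 fold change over the root of F. On simulated data with 200 changed tags among 34350 tested at 2, 28 and 90 dpn, 39 of 100 tags changed 4-fold and 100 of 100 changed 16-fold were recovered, with 4 false calls. The simulation had no stage effect and left scarce tags unchanged. Its dispersion was set below the common dispersion of 0.337 in the fit of the data. The recovered shares therefore do not carry over to the members. Ratios at 2 dpn carry exact binomial intervals at 95%, and shares Wilson intervals. Alternatives were DESeq2 1.42.0, scaling by total clean tags or TMM, no filter, no stage block, each stage pair left out, constants of 0.1 and 5, other sets of libraries, merging of tags 1 base apart (598466 remained), a floor of 10 copies and, added after the data were seen, TMM scaling of summed levels and of the levels in LR at 120 and 180 dpn. Python 3.11.15, pandas 2.3.3 and scipy 1.17.1 were used.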

Additional observations from a re-analysis of the deposited data

Results flagged for a closer look

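The LR libraries of 120 and 180 dpn, which the choice of members left out, held counts of some members. In LR at 120 dpn 63 members had 3 or more copies and in LR at 180 dpn 62 had, which is 31.5% and 31.0%, below the 41.5% and 40.6% of the background tags. Member 95, CATGcgggagtgtgagcaagc, had 3408 TPM in LR at 120 dpn and 1422 TPM in LR at 180 dpn, above both 2 dpn libraries. LT at the same ages had 163 and 169 TPM of it. No explanation of this level was tested.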

How the results depend on the processing

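Which tags were chosen depended on the settings of the ratio. Of the 200 members, 128 remained among the first 200 with TMM scaling, 50 with a constant of 0.1, 115 with a constant of 5, and 35 when LT at 2 dpn alone was used in place of the lower of both 2 dpn libraries, an alternative added after the data were seen. All 23 members of 100 TPM or more remained with a constant of 5 and 0 with 0.1. The numbers that remained were 175 with LR at 120 and 180 dpn included, 174 with tags 1 base apart merged and 154 without LT at 120 and 180 dpn. With TMM scaling, also added later for the sum, the summed level at 2 dpn over the highest of the other 16 libraries was 2.78 in LR and 3.71 in LT, and all 200 members kept a ratio above 1. At least 2-fold apart at 2 dpn were 34 members with TMM scaling and 47 of 192 tags after merging. With 10 copies in place of 3, members detected in LR were 40 at 120 dpn and 37 at 180 dpn. At 2, 28 and 90 dpn 0 members were called under every alternative run, while calls over all tags ran from 0 without the 28 dpn pair to 1174 without the filter. Since the choice shaped the counts of members called, here and before birth, nothing about the members is read from them. Before birth 6 members were called by DESeq2, 4 without the stage block, and 0 to 28 with a stage pair left out, the 28 without 35 dpc. Over all tags the calls before birth ran from 1321 without 49 dpc to 30155 without 35 dpc, and total scaling moved the split from 2417 higher in LT and 2426 in LR to 2793 and 1659, and the median log2 fold change of all tags tested from 0.16 to 0.35. Member 8 and member 177 each kept their direction under every alternative in which they were tested and their call in 4 of 8 and 4 of 9, with adjusted p-values of 0.0032 to 0.28 and 0.0016 to 0.17. Member 8 did not pass the filter without the stage block. The causes were not tested. The stage block already paired the LR and the LT library of each stage. The labels carry no shared replicate numbers for a further pairing. Each breed and stage was 1 pooled library, and tags under about 1 TPM rest on a few copies.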

Other observations

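The same ratio, computed for the other stages with both breeds in the choice, reached the lowest value of the 200 members in 2114 tags at 35 dpc, 19 at 49 dpc, 8 at 63 dpc, 2 at 77 dpc, 19 at 91 dpc, 71 at 28 dpn and 99 at 90 dpn. The highest ratio was 46.3 at 35 dpc and 6.50 at 28 dpn, beside 5.86 at 2 dpn. Tags seen in both libraries of a stage and in none of the other 16 numbered 606 at 2 dpn. Before birth they numbered 3164 at 35 dpc, 829 at 49 dpc, 370 at 63 dpc, 514 at 77 dpc and 1172 at 91 dpc. Later they numbered 312 at 28 dpn and 368 at 90 dpn.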
